A study of Bos taurus with 138 samples.

Results

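The mRNA found on polysomes of bovine oocytes arrested at metaphase II (MII) was compared with that on polysomes of 2-cell embryos, the step that spans fertilization and the first cleavage. The comparison rests on 12 of the 138 libraries of the series, namely fractions F8, F9 and F10 of gradients A and B at each of the 2 stages. The 3 fractions of a gradient were summed, which gave 2 MII pools and 2 2-cell pools. MII oocytes were matured in vitro from ovaries collected at slaughter, and 2-cell embryos came from in vitro fertilization of such oocytes with semen of a single Holstein bull. No genetic change is named for either stage. Oocytes and embryos of both stages were freed of the zona, treated with cycloheximide, which holds ribosomes on mRNA, and lysed in pools, so that a value describes many oocytes or embryos and not one. Lysates were spun through sucrose, in which mRNA with more ribosomes travels further, and the study regarded F1-F2 as free RNA, F3-F5 as monosomes and F8-F10 as polysomes. Whole-cell mRNA (transcriptome) was sequenced from 3 further samples of each stage.

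A mature oocyte carries a large store of mRNA made during its growth, and transcription is nearly silent from then until the major activation of the embryonic genome, which falls at about the 8-cell stage in cattle. Between these points, proteins are made from stored mRNA, and which mRNA is translated depends on its poly(A) tail, on proteins bound to its 3' end and on its decay. MII arrest itself is held by cyclin B with CDK1 and by MOS, the kinase upstream of MAP kinase, and ends when calcium rises at fertilization. Levels are given here in CPM, the counts of a gene scaled to a library of fixed size, after scaling each pool with edgeR's TMM factors. No RNA was added as a standard, so a level is a share of the mRNA in that pool. A general gain or loss of polysomes would not be seen. Where 2 values are given for a stage, the first is gradient A and the second gradient B, and MII comes before 2-cell.

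The 4 pools held between 29880279 and 32650295 counts, and single fractions between 8840839 and 11664583. Pearson's r of log2(CPM + 1) was 0.940 between the MII pools, 0.960 between the 2-cell pools and between 0.897 and 0.928 across stages. Library F10 of MII gradient B stood apart, with 6188 genes at 3 or more counts against 10587 to 12028 in the other 11 libraries. The 50 most abundant genes took 23.0% and 24.2% of counts in the MII pools and 16.5% and 17.1% in the 2-cell pools. Oocyte markers were abundant in all 4 pools, with none of the 15 at 3 or fewer counts, and their summed level was 59500 and 79900 CPM in MII and 21100 and 21200 CPM in 2-cell pools. Of 26 cumulus and granulosa cell markers, 6 to 10 had no count in a pool and STAR, the carrier of cholesterol into mitochondria, was the highest in each pool. The sum of the 24 that were tested was 794 and 1580 CPM in MII and 914 and 1250 CPM in 2-cell pools. Most of it was STAR, so the sum says little of the other markers. Scaled to library totals alone, STAR had 471 and 756 CPM at MII and 762 and 1120 CPM at the 2-cell stage. All 26 markers then summed to 687 and 1410 CPM at MII and 1010 and 1360 CPM at the 2-cell stage. Sperm markers summed to between 54.6 and 122 CPM, most of it LDHC, and blood and immune markers to between 45.9 and 140.0 CPM. In such pooled lysates, fewer cells of a type and less RNA per cell cannot be told apart.

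Polysome levels of 493 genes rose and of 751 genes fell from MII to 2-cell, by the test of edgeR's quasi-likelihood model with an adjusted p below 0.05 and a change above 2-fold. That is 3.37% higher and 5.14% lower among the 14612 genes tested. Both pools of one stage lay beyond both pools of the other in 471 of the higher and 714 of the lower genes, which were called from the same pools. Among all genes tested, the pools lay apart in this way in 25.4% (2-cell higher) and 22.9% (2-cell lower). The median log2 change was 2.23 in the higher and -2.07 in the lower genes. The stage with the lower level had no count at all in 75 of the higher and 86 of the lower genes. A mean of at least 10 CPM in the higher stage was reached by 325 and 559 genes, with median log2 changes of 1.89 and -1.77.

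The model takes its estimate of spread from 30 libraries, the polysome pools and transcriptomes of all 6 stages. With the spread estimated from the 4 pools alone, 185 genes were called, 48 of the higher and 109 of the lower genes among them, and with all 12 polysome pools 2 genes were higher and 24 lower. The balance of directions depends on scaling: with library totals and no TMM factors, the median of all genes moved by 0.271 on the log2 scale, and 762 genes were called higher and 461 lower. Without F10 of MII gradient B, 471 genes were higher and 619 lower, including 413 of the 493 and 568 of the 751. Of 183 genes singled out by a rule, 21 then lost the call on polysomes, among them CCHCR1, ENTPD6, PDK4, EFCAB6, FTL, CCNB2, FIGLA, PAIP2B, CNOT9, KDM4A, MED17, GSPT1, CEP290, RAC1, PSMD6, LAPTM4B, TXN2, GPX1, DCN and GSTT1. Without all of MII pool B, 154 genes were higher and 371 lower, without 2-cell pool A 266 and 348, and without 2-cell pool B 247 and 320.

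Among genes that fell, those with the largest loss in level encode ubiquitin, a zona protein, tubulins and ferritin. UBB, a polyubiquitin gene, had 23672 and 24350 CPM in the MII pools and 1862 and 1924 CPM in the 2-cell pools. Its MII fractions F8, F9 and F10 gave 18500, 22600 and 23400 CPM in gradient A and 21700, 20100 and 32800 in gradient B, and the 2-cell fractions 2080, 2000 and 1250 and 1560, 2180 and 1540. All 6 MII fractions lay far above all 6 2-cell fractions, a 12.7-fold fall. The log2 change was -3.66 ± 0.30 (SE, n = 2 pools a stage, adjusted p = 8.36e-08 in edgeR). This and later SEs use the spread of the 30 libraries in the model. UBB had the smallest adjusted p of all genes.

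ZP3, the zona pellucida protein to which sperm bind, was the most abundant oocyte marker at MII. The pools held 25278 and 50227 CPM at MII and 3732 and 3182 CPM at the 2-cell stage, without overlap (log2 change -3.45 ± 0.49, adjusted p = 0.00013 in edgeR). F10 of MII gradient B alone gave 86600 CPM, against 18300 to 39900 CPM in the other 5 MII fractions, and without that library the adjusted p was 0.000199. TUBG1, the gamma-tubulin that nucleates microtubules, went from 4173 and 3182 CPM to 823 and 621 CPM (log2 change -2.35 ± 0.33, adjusted p = 0.00012 in edgeR). The alpha-tubulin TUBA1C fell from 12992 and 9023 CPM to 5533 and 4796 CPM. The ferritin light chain FTL, which stores iron with the heavy chain FTH1, fell from 7918 and 12133 to 4092 and 3836 CPM, and FTH1 from 3838 and 4954 to 1599 and 1277 CPM. The adjusted p in edgeR was 0.00893 for TUBA1C, 0.0268 for FTL and 0.0199 for FTH1. With library totals these 3 genes missed the threshold, at 0.0532, 0.0668 and 0.0525, and FTL did so also without F10 of MII gradient B (0.0888). Ubiquitin, tubulin and ferritin genes have close copies in mammals, and reads could be split among them by the authors' counting.

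Among genes that rose, UHRF1 gained most next to MKRN2. UHRF1 binds DNA methylated on 1 strand and brings the maintenance methyltransferase to it. Its pools held 192 and 234 CPM at MII and 1138 and 1389 CPM at the 2-cell stage (log2 change 2.57 ± 0.45, adjusted p = 0.000885 in edgeR). Fractions F8, F9 and F10 had 199, 202 and 119 CPM in MII gradient A and 246, 314 and 25.7 in B, then 1370, 852 and 1050 and 1250, 1360 and 1230 in the 2-cell gradients. Every 2-cell fraction lay above every MII fraction. In whole cells UHRF1 had 222 ± 33.5 and 291 ± 33.2 CPM (SD, n = 3), a log2 change of 0.39 that was not called, and the polysome change exceeded it by 2.18 (adjusted p = 0.0415 in edgeR).

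The other genes with large gains in level were MKRN2, ALKBH5, HGS, TBC1D8 and ENTPD6. MKRN2, a ubiquitin ligase with RNA-binding zinc fingers, had 731 and 803 CPM at MII and 1782 and 2199 CPM at the 2-cell stage. ALKBH5, which removes methyl groups from adenosine in mRNA, had 548 and 331, then 1251 and 1697 CPM. HGS, a subunit of the first complex that sorts ubiquitinated membrane proteins in endosomes, had 308 and 295, then 951 and 1253 CPM. TBC1D8, of a family that switches off Rab proteins, went from 187 and 171 to 720.1 and 748 CPM, and the nucleotidase ENTPD6 from 448 and 352 to 898 and 982 CPM. In each of these 5 genes both 2-cell pools lay above both MII pools, but the genes were chosen from called genes by their gain in level. Their log2 changes lay between 1.23 and 2.04 and their adjusted p between 0.00359 and 0.0495 in edgeR. These genes rose in whole cells too, by log2 1.2, 1.34, 2.87, 1.94 and 2.25 in the order given.

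**Figure D1:**
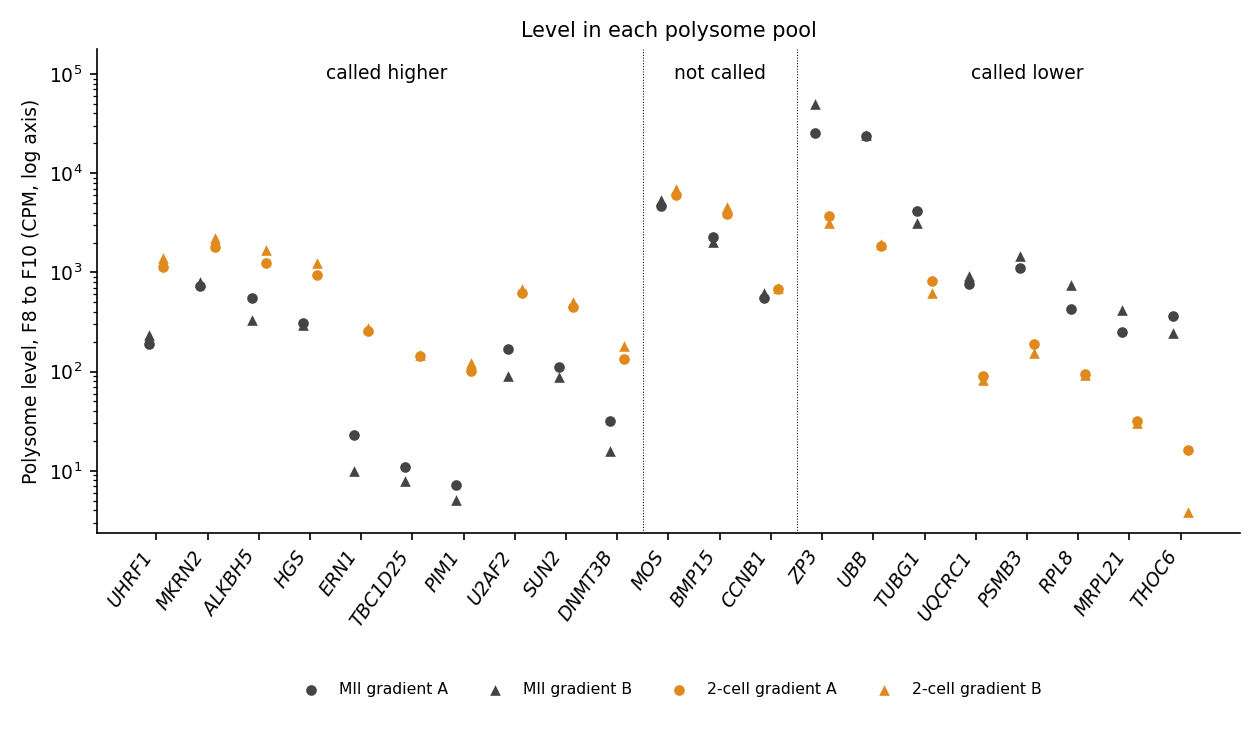
Polysome level (F8 to F10 summed, CPM, log axis) of 21 genes in each of the 4 pools, with circles for gradient A and triangles for gradient B. MII pools are grey and 2-cell pools orange; UBB sits at 23672 and 24350 CPM in MII and 1862 and 1924 CPM in 2-cell pools, and MOS, BMP15 and CCNB1 were not called.

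The 10 genes with the largest fold gain were taken from called genes with a mean of at least 10 CPM at the 2-cell stage and pools that did not overlap. PIM1, a serine/threonine kinase, had 7.24 and 5.08 CPM at MII and 103 and 123 CPM at the 2-cell stage, an 18.3-fold rise (log2 change 4.19 ± 0.58, adjusted p = 0.000113 in edgeR). ERN1, the sensor of unfolded protein in the endoplasmic reticulum, had 23 and 9.94, then 259 and 277 CPM (log2 change 4.02 ± 0.91, adjusted p = 0.00702 in edgeR). TBC1D25, a Rab regulator in autophagy, had 10.9 and 7.94, then 145 and 147 CPM, and the membrane protein CLPTM1 6.99 and 1.93, then 91.8 and 72.5 CPM. FOXI3, a forkhead transcription factor, had 4.43 and 2.75, then 45.4 and 58 CPM. Pools that did not overlap were a condition of this choice.

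The remaining 5 genes of this group stayed under 30 CPM in each pool. They were MAP3K21, AMOTL2, CCHCR1, CSTF2T and MAPK3, with log2 changes from 3.96 to 4.3 and adjusted p from 0.00767 to 0.0472 in edgeR. MAPK3 is the ERK1 kinase downstream of MOS, and it had 0.901 and 1.18 CPM at MII and 17.7 and 15 CPM at the 2-cell stage. CCHCR1 missed the threshold without F10 of MII gradient B (0.0659).

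The 10 genes with the largest fold loss, taken in the same way with the level at MII, included INHA and CYP11A1, both known from granulosa cells. INHA, the alpha chain of inhibin, had 30.3 and 265 CPM at MII and 3 counts over both 2-cell pools, against 8253 counts over both MII pools. CYP11A1, which makes pregnenolone from cholesterol, had 8.54 and 14.4, then 0.0834 and 0.308 CPM. PDK4, a brake on pyruvate dehydrogenase, had 3.21 and 47.1 CPM at MII and no count at the 2-cell stage, at least 576-fold lower with 3 counts over both 2-cell pools as the floor. INHA, CYP11A1 and PDK4 were higher in MII pool B than in A. Pool B also had the larger sum of cumulus and granulosa markers (1580 against 794 CPM), a list that includes INHA and CYP11A1. F10 of MII gradient B gave 839 CPM for INHA, 206 CPM for PDK4 and 0.156 CPM for CYP11A1. In the other MII polysome fractions INHA had 24.8 to 121 CPM. The part of other cells in these losses was not tested. PDK4 lost its call without F10 of MII gradient B (0.057).

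SERPINA14, a serpin known from the uterus, had 86.2 and 333 CPM at MII and 1.86 and 1.48 CPM at the 2-cell stage, and its whole-cell level went from 709 to 3.9 CPM. The exonuclease ISG20 had 7.02 and 21.5 CPM at MII and no count in 2-cell pools, at least 326-fold lower on the same floor. The tetraspanin TSPAN6 had 4.25 and 62.8 CPM at MII and 1 count at the 2-cell stage. F10 of MII gradient B gave 249 CPM of TSPAN6, against 1.9 to 12.4 CPM in the other MII polysome fractions. The metallothionein MT1E went from 3.46 and 20.7 to 0.278 and 0.338 CPM. In all 4 genes the whole-cell level fell as well, with log2 changes of -7.5, -8.37, -6.73 and -9.23 in the order given. THOC6, a subunit of the complex that couples transcription to mRNA export, was high in both MII pools, at 361 and 243 CPM, and had 16.1 and 3.81 CPM in the 2-cell pools (log2 change -4.92 ± 0.6, adjusted p = 2.22e-05 in edgeR). WDR35, a part of the transport machinery of cilia, had 5.69 and 21.8, then 0.167 and 0.40 CPM, and EFCAB6 had 2.52 and 27.9, then 0.806 and 0.431 CPM. EFCAB6 rests on gradient B, and its adjusted p without F10 of that gradient was 0.451.

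Gene lists drawn up by function were then described by their counts. Ribosomal proteins form the ribosome itself, and their list had the largest share of members called: 43 of 76 cytosolic ribosomal protein genes fell and 0 rose, where 5.14% of all genes fell. The median log2 change was -1.48, against 0 for all genes tested, and 72 of the 76 estimates were below 0. Their summed level was 12000 and 18700 CPM in the MII pools and 6850 and 6180 CPM in the 2-cell pools, so the stages did not overlap. It had been 8690 and 11200 CPM in GV oocytes, the stage before maturation, and was 53900 and 57800 CPM at the 8-cell stage.

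RPL8 had 429 and 749 CPM at MII and 94.3 and 93.4 CPM at the 2-cell stage (log2 change -2.65 ± 0.31, adjusted p = 1.25e-05 in edgeR). RPS25 had 45.4 and 107, then 5.84 and 9.08 CPM, and RPL32 88.9 and 148, then 20.5 and 18.7 CPM. All 3 are structural proteins of the ribosome, and in each of them both 2-cell pools lay below both MII pools, as they did in 62 of the 76 genes and in 22.9% of all genes. In whole cells 60 of the 76 genes fell, 39 of them among the 43, with a median log2 change of -1.64, where 5.96% of all genes fell in whole cells. Ribosomal protein genes have many processed copies in the genome, so values of single members are uncertain.

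Nuclear genes of oxidative phosphorylation fell in 39 of 76 cases and rose in 1, or 51.3% and 1.32%, with a median log2 change of -1.44. The summed level was 17500 and 25900 CPM at MII and 10100 and 9010 CPM at the 2-cell stage. UQCRC1, a core protein of complex III, had 771 and 913, then 90.1 and 81.5 CPM (log2 change -3.29 ± 0.39, adjusted p = 1.9e-05 in edgeR). NDUFC2 of complex I had 23.5 and 42, then 2.61 and 1.54 CPM, and ATP5PD of ATP synthase had 321 and 528, then 64.2 and 67.9 CPM. NDUFA8, also of complex I, was the single member that rose, from 334 and 510.0 to 882 and 930.4 CPM (adjusted p = 0.0468 in edgeR). In whole cells 36 members fell, 25 of them among the 39.

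Of mitochondrial ribosomal proteins, which serve translation inside mitochondria, 24 of 81 fell and 1 rose, or 29.6% and 1.23% against 5.14% and 3.37% of all genes, with a median of -0.74. MRPL21 had 253 and 422 CPM at MII and 32.1 and 30.2 CPM at the 2-cell stage (adjusted p = 6.14e-06 in edgeR), MRPL42 had 31.2 and 69.2, then 6.78 and 9.63 CPM, and MRPL23 had 58.1 and 133, then 12.7 and 11.8 CPM. MRPL4 rose, from 143 and 246 to 398 and 427 CPM (adjusted p = 0.0481). The 13 protein genes of the mitochondrial genome, whose mRNA is not translated on cytosolic ribosomes, did not pass the test in either direction, with estimates above 0 in all 13 and a median of 0.44. COX3 had 419 and 455 CPM at MII and 630.0 and 329.7 CPM at the 2-cell stage, and COX1 296 and 289.5, then 703 and 269 CPM. In both genes the 2-cell gradients lay on either side of the MII values.

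Proteasome subunits, which form the protease for ubiquitinated proteins, fell in 16 of 49 cases and rose in 1, or 32.7% and 2.04% against 5.14% and 3.37% of all genes, with a median of -0.6. PSMB3 had 1102 and 1463 CPM at MII and 188 and 153 CPM at the 2-cell stage (log2 change -2.91 ± 0.28, adjusted p = 1.73e-06 in edgeR), and PSMB1 had 501 and 690.1, then 135 and 114 CPM. PSMA2 was at 1.66 and 15.1, then 0.0834 and 0.154 CPM. PSMD6, of the regulatory cap, rose from 19 and 28.3 to 46.7 and 51.7 CPM (adjusted p = 0.0144 in edgeR, 0.0581 without F10 of MII gradient B). In whole cells 17 subunits fell, 13 of them among the 16.

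With library totals in place of TMM, the 4 lists still had more members lower than higher. The counts lower were then 34 for cytosolic ribosomal proteins, 27 for oxidative phosphorylation, 15 for mitochondrial ribosomal proteins and 13 for the proteasome. Without F10 of MII gradient B they were 34, 29, 17 and 14. From the 4 pools alone, where few genes pass the adjusted threshold, 12, 9, 3 and 5 members were called lower and 54, 52, 36 and 19 were lower at an unadjusted p under 0.05. Among all genes those shares were 0.932% and 11.6%.

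**Figure D2:**
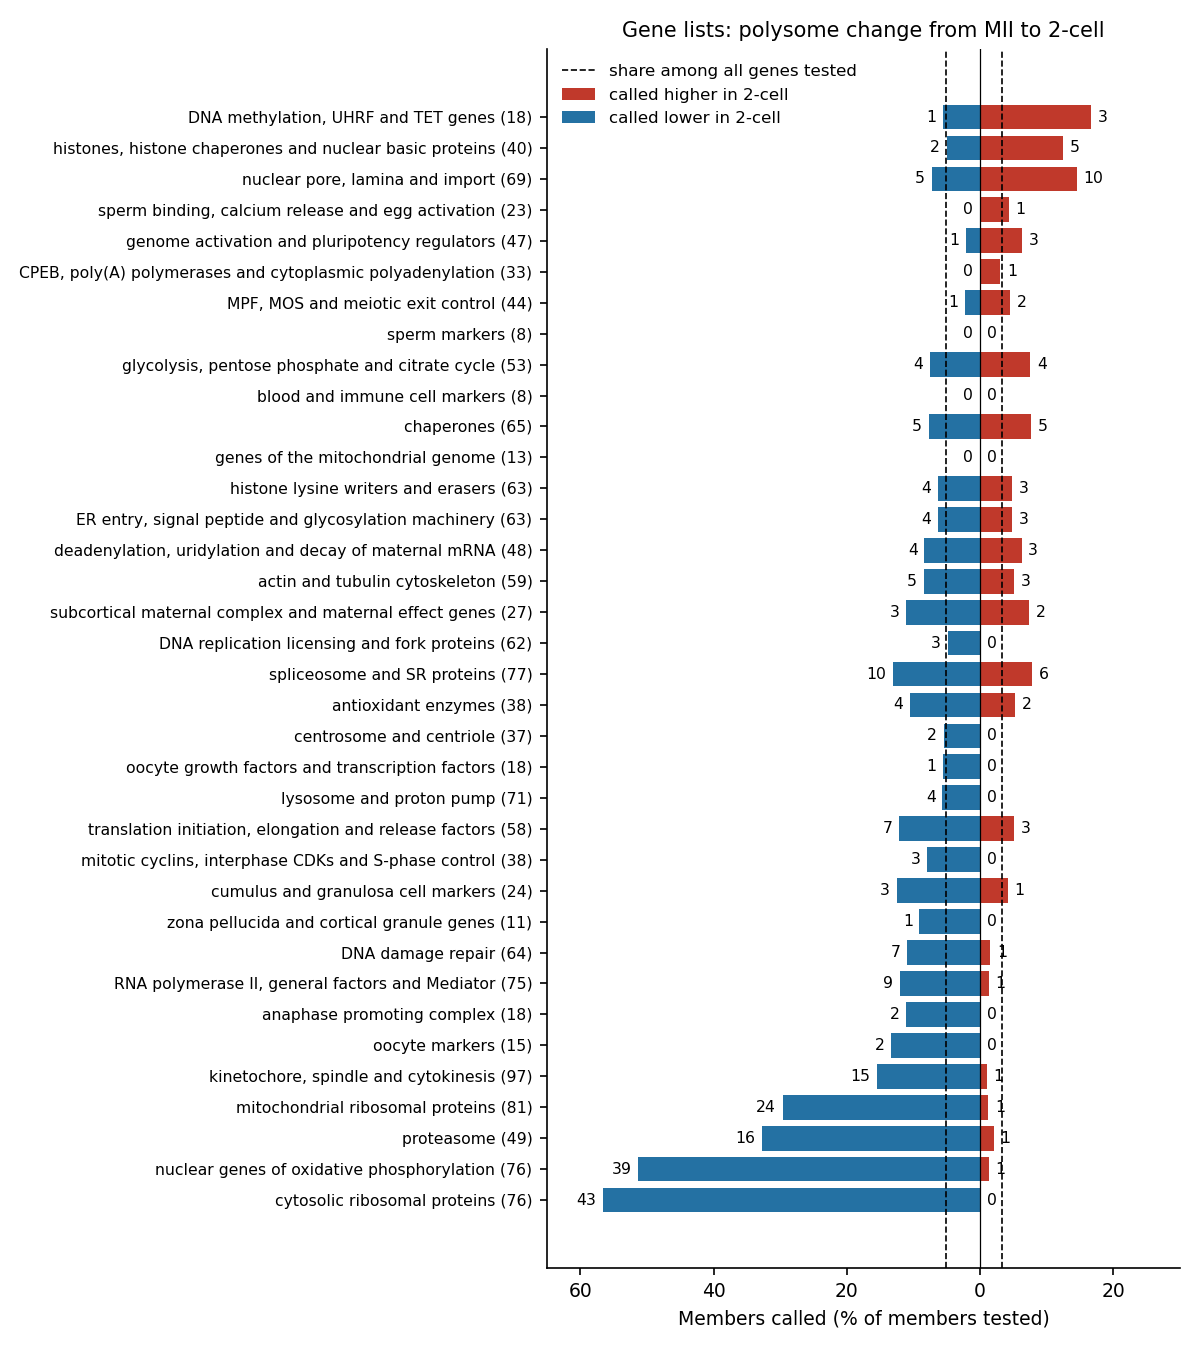
Share of the members of each of 36 gene lists called higher (red, right) or lower (blue, left) in 2-cell polysomes, in percent of members tested (number in brackets), with counts beside the bars. Dashed lines mark the shares among all genes tested, 3.37% and 5.14%; cytosolic ribosomal proteins and oxidative phosphorylation have the longest bars, at 56.6% and 51.3% lower.

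The fall of these lists was then followed along the whole gradient. Of the 40 fraction libraries of the 2 stages, 3 stood apart: F10 of MII gradient B and F1 and F6 of 2-cell gradient A. Their median r with libraries of their own stage was 0.665, 0.703 and 0.769, against 0.826 to 0.932 in the other 37. Without these 3, the median difference of cytosolic ribosomal proteins, on the scale of log2(CPM + 1), lay below 0 in each of the 10 fractions. It was -2.44 in F1, -1.59 in F3, -1.59 in F5, -1.2 in F8, -1.13 in F9 and -0.998 in F10. Oxidative phosphorylation genes gave -2.03 in F1, -1.46 in F5 and -0.8 in F10, and proteasome subunits between -0.88 and -0.37 over the 10 fractions. The medians of free, monosome and polysome fractions thus had the same sign. With all libraries, the ribosomal protein median was -0.23 in F6 and -2.03 in F10, where the libraries that stood apart lie.

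**Figure D3:**
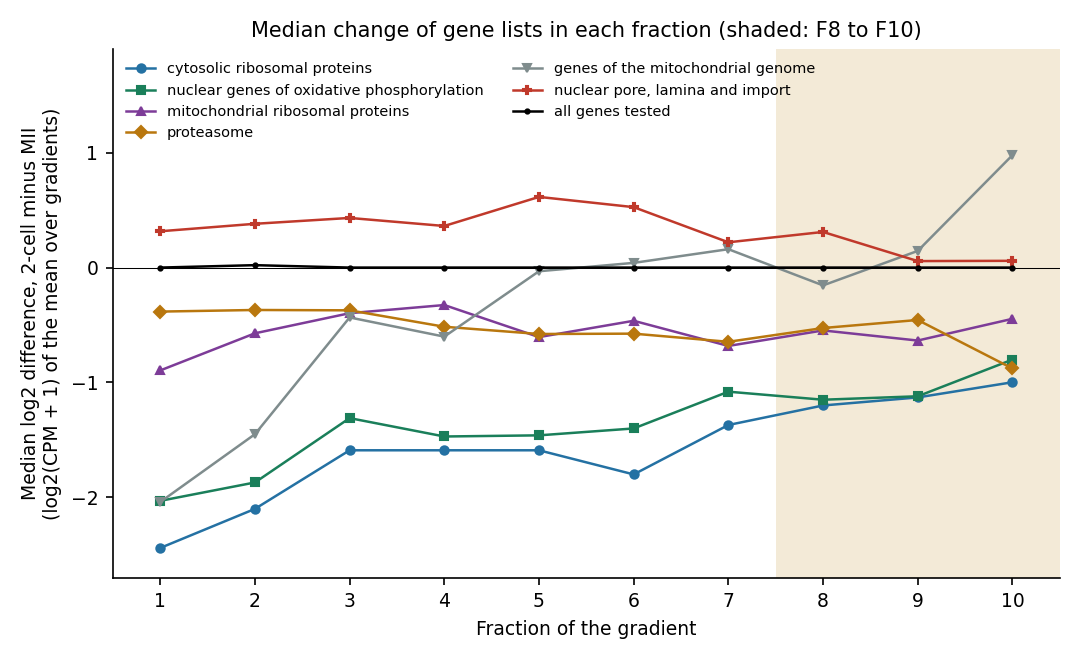
Median difference of log2(CPM + 1) between 2-cell embryos and MII oocytes over the members of 6 gene lists and all genes tested, by fraction, without the 3 libraries that stood apart; polysome fractions are shaded. Cytosolic ribosomal proteins run from -2.44 in F1 to -0.998 in F10, genes of nuclear pore and import lie above 0 in each fraction, and those of the mitochondrial genome run from -2.04 in F1 to 0.98 in F10.

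Genes of the nuclear envelope and of nuclear transport carried more rises than falls. Of 69 genes, 10 rose and 5 fell, against 3.37% and 5.14% of all genes. SUN2, which ties the nuclear lamina to the cytoskeleton, had 112 and 88.1 CPM at MII and 451 and 502 CPM at the 2-cell stage (log2 change 2.25 ± 0.47, adjusted p = 0.00417 in edgeR). The lamina protein TMPO had 14.6 and 16.1, then 48.5 and 54.7 CPM, and the import receptor IPO9 had 12.4 and 9.15, then 70.6 and 79 CPM. Both 2-cell pools exceeded both MII pools in these 3 genes. The other 7 that rose were the import receptors KPNA6, KPNB1, TNPO2 and IPO5, the exportin XPO6 and the lamins LMNB1 and LMNB2. The 5 that fell included the pore proteins AAAS, from 1298 and 860.2 to 137 and 100.3 CPM, and NUP155, from 198 and 203 to 88.6 and 43.4 CPM, and the exportin XPO1, from 3.28 and 4.22 to 1.64 and 0.461 CPM. In AAAS the polysome change was more negative than the whole-cell change, with a log2 difference of -2.67 (adjusted p = 0.00993 in edgeR). The median of the list was 0.19, or 0.51 with library totals, where all genes had 0.271.

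Histones and their chaperones rose in 5 of 40 cases and fell in 2, or 12.5% and 5.0% against 3.37% and 5.14% of all genes, so that the falls were at the share of all genes. HJURP, the chaperone of the centromeric histone, had 41.1 and 28.4, then 146 and 81.3 CPM, and SSRP1 of the FACT complex had 48.6 and 53.4, then 109 and 125 CPM. HIRA, the chaperone that deposits histone variant H3.3, was nearly absent at MII, with 2 counts over both pools, and had 2.89 and 6.86 CPM at the 2-cell stage. H3F3A, which encodes that variant, fell from 296 and 343 to 119 and 117 CPM (adjusted p = 0.00592 in edgeR), and the remodeller ATRX fell from 57 and 48 to 20.6 and 14.4 CPM. The oocyte linker histone H1FOO had 5162 and 3543 CPM at MII and 1198 and 1492 CPM at the 2-cell stage but did not pass the test (adjusted p = 0.268 in edgeR). Its 2-cell pools lay below its MII pools, as in 22.9% of all genes, and the unadjusted p with the spread of the 4 pools alone was 0.000351 in edgeR. By that test 11.6% of all genes were lower at an unadjusted p under 0.05.

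Genes of DNA methylation rose in 3 of 18 cases and fell in 1, or 16.7% and 5.56% against 3.37% and 5.14% of all genes, and 1 of the 3 rises was at a very low level. Besides UHRF1, the de novo methyltransferase DNMT3B went from 32 and 15.7 to 135 and 183 CPM (log2 change 2.74 ± 0.74, adjusted p = 0.0222 in edgeR), and MBD2, which binds methylated DNA, from no count at MII to 0.195 and 1.2 CPM. TRIM28, a corepressor that protects methylation at imprinted genes, fell from 121 and 110.3 to 48.9 and 35.7 CPM. DNMT1, the maintenance enzyme, had 131 and 148, then 91.2 and 96.8 CPM and was not called (adjusted p = 0.365 in edgeR). Writers and erasers of histone lysine marks rose in 3 and fell in 4 of 63 cases, or 4.76% and 6.35%, near the shares of all genes. The methyltransferase SETDB1 had 26.3 and 22.7, then 87.5 and 93.8 CPM and the acetyltransferase CREBBP 5.98 and 8.26, then 38 and 22.9 CPM, while RBBP7 fell from 820.3 and 1148 to 348 and 323 CPM and the deacetylase HDAC3 from 399.5 and 127 to 35.4 and 61.9 CPM. KDM4A, which removes methyl groups, rose from 7.17 and 6.65 to 28.2 and 29.8 CPM, and ASH1L fell from 11 and 15.1 to 2.11 and 1.17 CPM.

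Of 44 genes of MPF, MOS and meiotic exit, 2 rose and 1 fell, or 4.55% and 2.27%, near the 3.37% and 5.14% of all genes. MOS had 4709 and 5330 CPM at MII and 6000 and 6864 CPM at the 2-cell stage (log2 change 0.36 ± 0.66, adjusted p = 0.845 in edgeR). CCNB1, the main cyclin of MPF, had 546 and 614, then 684 and 690.2 CPM (log2 change 0.24 ± 0.28, adjusted p = 0.703). The 2-cell pools lay above the MII pools in both genes, but the differences did not pass the test. WEE2, the oocyte kinase that inhibits CDK1, had 143 and 138, then 290.2 and 318 CPM (adjusted p = 0.241), and FBXO43, which holds the anaphase promoting complex in check, 38.8 and 18.5, then 48 and 27.1 CPM. The genes called included MAPK3, described above, and CCNB2, which fell from 552 and 1114 to 395 and 407 CPM.

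Mitotic cyclins, interphase CDKs and genes of S-phase control fell in 3 of 38 cases (7.89%, against 5.14% of all genes), and none rose. They were CCNE1 (from 11.2 and 17.2 to 3.47 and 6.37 CPM), CHEK2 (from 7.2 and 11.8 to 2.0 and 2.95 CPM) and CCND2, which had 1.26 and 2.07 CPM at MII and 1 count over both 2-cell pools. CCNA2, the S-phase and mitotic cyclin, had 271 and 279, then 173 and 172 CPM (adjusted p = 0.171 in edgeR). In the anaphase promoting complex, the activator CDC20 fell from 1595 and 1182 to 650.4 and 476 CPM and the subunit CDC26 from 46.8 and 70.8 to 18 and 16.3 CPM, 2 of 18 genes or 11.1%. CCNB2, CCNE1 and CDC20 missed the threshold with library totals, at 0.143, 0.0547 and 0.071.

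Genes of kinetochore, spindle and cytokinesis fell in 15 of 97 cases and rose in 1, with 5.14% of all genes lower. Besides TUBG1, SMC4 of the condensin complex fell from 68.6 and 90.3 to 17.1 and 12.7 CPM (log2 change -2.41 ± 0.32, adjusted p = 6.2e-05 in edgeR) and HAUS8 of the augmin complex from 133 and 202 to 34.1 and 41.1 CPM. TUBGCP3, a partner of gamma-tubulin, was the member that rose, from 36.1 and 14.2 to 112 and 125 CPM. Whole-cell levels fell in 20 of the 97 and in 8 of the 15. Of centrosome genes, CETN3 fell from 163 and 187 to 41.1 and 42.2 CPM and CEP290 from 3.28 and 11.8 to 0.306 and 1.97 CPM. These 2 of 37, or 5.41%, lay near the 5.14% of all genes. The adjusted p for CEP290 was 0.318 in edgeR without F10 of MII gradient B. Replication licensing and fork genes fell in 3 of 62 cases, or 4.84%, near the 5.14% of all genes, and none rose. The 3 were MCM5, from 2956 and 1810 to 646 and 563 CPM, MCM2, from 33.2 and 34.1 to 12 and 8.43 CPM, and RRM1, whose pools overlapped (22.2 and 88.4, then 9.23 and 23.5 CPM). Repair genes fell in 7 of 64 cases and rose in 1, or 10.9% and 1.56%. The falls were led by MSH6 (from 20.9 and 25.4 to 7.28 and 4.98 CPM), ERCC1 (from 286 and 338 to 51.2 and 61.1 CPM) and FANCF (from 205 and 161 to 74.5 and 60.8 CPM).

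Besides ZP3, several genes that mark the oocyte were measured at high levels. ZP2, another zona protein, had 1218 and 1687 CPM at MII and 624 and 509 CPM at the 2-cell stage, and its pools did not overlap, but it was not called (adjusted p = 0.28 in edgeR). The growth factor GDF9 had 784 and 1343, then 993 and 1070 CPM (adjusted p = 1 in edgeR), and its partner BMP15 2255 and 2007, then 3893 and 4540 CPM (adjusted p = 0.569 in edgeR). In the list of growth factors and oocyte transcription factors, FIGLA fell, from 271 and 741 to 78.2 and 88.6 CPM, as 1 of 18, or 5.56%, near the 5.14% of all genes. Of 11 zona and cortical granule genes ZP3 alone was called, and of 23 genes of sperm binding and egg activation the zinc exporter SLC30A1 rose, from 0.648 and 1.43 to 12.1 and 12.6 CPM. These are 9.09% lower and 4.35% higher, against 5.14% and 3.37% of all genes.

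In the subcortical maternal complex and among other maternal effect genes, 3 of 27 fell and 2 rose, where 5.14% and 3.37% of all genes did. TLE6 fell from 2289 and 2374 to 567 and 623 CPM (adjusted p = 0.0068 in edgeR) and OOEP from 3390 and 3881 to 1192 and 918 CPM (adjusted p = 0.00844 in edgeR), both members of that complex, and TRIM28 was the third. NLRP5, their partner, had 3692 and 2534, then 2033 and 2259 CPM and was not called. The heat shock factor HSF1 rose from 258 and 191 to 689 and 632 CPM, as did ZNF830 at a low level. KPNA7, ZAR1, DPPA3 and NPM2 are maternal proteins of nuclear import, mRNA storage, methylation and sperm chromatin. KPNA7 had 3964 and 3362, then 2561 and 2412 CPM, and ZAR1 865 and 760.2, then 821 and 889 CPM. DPPA3 had 509 and 519, then 379.8 and 284 CPM, and NPM2 89.9 and 185, then 77.5 and 107 CPM. None of the 4 was called (adjusted p from 0.359 to 1 in edgeR).

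Of 33 genes of cytoplasmic polyadenylation, PAIP2B, which competes for the poly(A)-binding protein, rose from 2.85 and 0.608 to 7.84 and 8.43 CPM and none fell. That is 3.03% higher, near the 3.37% of all genes. Without F10 of MII gradient B none of the 33 rose and 1 fell. Of 48 genes of deadenylation, uridylation and decay, 3 rose and 4 fell, or 6.25% and 8.33% against 3.37% and 5.14% of all genes. CNOT1, the scaffold of the main deadenylase, rose from 26.1 and 44.6 to 169 and 107 CPM (log2 change 1.97 ± 0.38, adjusted p = 0.00214 in edgeR). ZFP36L2, which binds AU-rich elements and leads mRNA to decay, rose from 38.4 and 26.3 to 106 and 139 CPM, and the decapping factor DCP1A from 19.7 and 3.79 to 57.8 and 25.1 CPM. CNOT9 fell from 15.5 and 60.3 to 14 and 4.89 CPM and UPF3B from 7.02 and 18.7 to 4.06 and 4.21 CPM, while BTG3 had 0.18 and 10.0 CPM at MII and no count afterwards. F10 of MII gradient B gave 181, 36.3 and 38.0 CPM for CNOT9, UPF3B and BTG3. The other MII polysome fractions gave 9.95 to 24.7, 4.73 to 13.1 and 0 to 3.46 CPM. Without that library 4 genes of the list rose and 3 fell, and with library totals 6 rose and 2 fell. BTG4, the adaptor of the main deadenylase in oocytes, had 1825 and 2798, then 1529 and 2274 CPM and was not called.

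Spliceosome and SR protein genes rose in 6 of 77 cases and fell in 10, or 7.79% and 13% against 3.37% and 5.14% of all genes. With library totals 8 rose and 7 fell, and without F10 of MII gradient B 5 rose and 6 fell. U2AF2, which binds the polypyrimidine tract, rose from 169.7 and 89.4 to 618 and 676 CPM (log2 change 2.32 ± 0.49, adjusted p = 0.00463 in edgeR) and the branch point protein SF1 from 15.1 and 12 to 47.6 and 44.1 CPM. SRSF4 rose at a low level. SNRPB, of the snRNP core, fell from 204 and 421 to 102 and 83.1 CPM (log2 change -1.75 ± 0.29, adjusted p = 0.000517 in edgeR), SF3B1 from 33.5 and 33.2 to 9.98 and 10.9 CPM and SRSF3 from 19.1 and 42 to 7.62 and 10.2 CPM. RNA polymerase II, general factors and Mediator fell in 9 of 75 cases (12%) and rose in 1, MED17. POLR2B, the second largest subunit, went from 11 and 87 to 2.31 and 1.88 CPM, POLR2L from 77.6 and 215 to 17 and 13.3 CPM and POLR2F from 354 and 472 to 115 and 115 CPM. For POLR2B, F10 of MII gradient B gave 346 CPM, against 3.18 to 13.4 CPM in the other MII polysome fractions.

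Translation factors rose in 3 of 58 cases and fell in 7, or 5.17% and 12.1% against 3.37% and 5.14% of all genes. With library totals this turned, and 8 rose and 4 fell, with a median log2 change of 0.0946. EIF4H, which aids the initiation helicase, rose from 186 and 104 to 374 and 329 CPM, the release factor GSPT1 from 17.1 and 22.3 to 42.1 and 41.9 CPM, and the elongation factor EEF1A1 from 80.2 and 94 to 179 and 192 CPM. EIF4A3, a helicase of the exon junction complex, fell from 453 and 236 to 61.2 and 71.2 CPM (log2 change -2.38 ± 0.30, adjusted p = 3.53e-05 in edgeR) while its whole-cell level was 339 ± 51.8 and 304 ± 43.7 CPM, and the log2 difference between the 2 changes was -2.22 (adjusted p = 0.00375). EIF3L fell from 369 and 459 to 103 and 66.5 CPM and EIF1AX from 46 and 105 to 10.2 and 10.9 CPM.

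Regulators of genome activation and pluripotency rose in 3 of 47 cases and fell in 1, or 6.38% and 2.13% against 3.37% and 5.14% of all genes. NFYC, a subunit of the CCAAT-binding factor, rose from 74.7 and 70.1 to 158 and 179.9 CPM. KLF17, from 0 and 0.107 to 0.834 and 4.52 CPM, and DPPA4, with no count at MII and 0.417 and 0.154 CPM at the 2-cell stage, were called higher at very low levels. HSF2 fell, from 3.6 and 1.82 to 1.11 and 0.154 CPM. POU5F1, the pluripotency factor, had 67 and 60.0, then 41.2 and 52 CPM and was not called.

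Chaperones rose in 5 and fell in 5 of 65 cases, 7.69% each way against 3.37% and 5.14% of all genes. With library totals 10 rose and 2 fell. DNAJB1 rose from 59.8 and 75.6 to 282 and 246 CPM, CCT3 from 110.1 and 244 to 400.4 and 399 CPM and DNAJC9 from 30.2 and 29.1 to 82 and 70.2 CPM, while CCT5, of the same ring as CCT3, fell from 278 and 306 to 151 and 135 CPM and the mitochondrial HSPE1 from 132 and 187 to 42.1 and 40.2 CPM. Glycolysis, pentose phosphate and citrate cycle genes rose in 4 and fell in 4 of 53 cases, 7.55% each way. With library totals 5 rose and 1 fell. ALDOA, the aldolase, rose from 192 and 123 to 500.0 and 556 CPM and IDH3G from 45.9 and 46.1 to 133 and 139 CPM, while IDH3B, another subunit of the same dehydrogenase, fell from 15.5 and 9.94 to 6.23 and 4.15 CPM and PGLS from 279 and 252 to 103 and 94.4 CPM. TKT, the transketolase, rose from 9.4 and 10.2 to 25.7 and 22.6 CPM.

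Antioxidant genes rose in 2 and fell in 4 of 38 cases, or 5.26% and 10.5% against 3.37% and 5.14% of all genes. With library totals 2 rose and 1 fell, and without F10 of MII gradient B 3 rose and 3 fell. TXNRD1, which reduces thioredoxin, rose from 9.47 and 10.2 to 76.5 and 47.1 CPM (log2 change 2.65 ± 0.43, adjusted p = 0.000444 in edgeR) and GCLC, for glutathione synthesis, from 13.8 and 10.0 to 42.3 and 44.2 CPM. The peroxiredoxin PRDX4 fell from 344 and 336 to 82.2 and 64.5 CPM, TXN2 from 56.1 and 78.8 to 26.4 and 34.8 CPM and GPX1 from 114 and 190.4 to 82.6 and 54.9 CPM. Without F10 of MII gradient B, TXN2 and GPX1 missed the threshold, at 0.11 and 0.33.

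The cytoskeleton list rose in 3 and fell in 5 of 59 cases, or 5.08% and 8.47% against 3.37% and 5.14% of all genes. With library totals 7 rose and 3 fell. ACTR2, of the actin-nucleating ARP complex, rose from 2.77 and 2.18 to 39.9 and 12.6 CPM (log2 change 3.4 ± 0.45, adjusted p = 6.2e-05 in edgeR), and so did ARPC3 at a low level and CAPZB, the actin capping protein, from 14.8 and 31.8 to 86.1 and 96 CPM. RAC1 fell from 478 and 459 to 233 and 226 CPM, MYL12A from 112 and 166 to 57.5 and 51.7 CPM and KRT18 from 4.36 and 6.9 to 0 and 0.338 CPM. Genes of entry into the endoplasmic reticulum and glycosylation rose in 3 and fell in 4 of 63 cases. These 4.76% and 6.35% lay near the shares of all genes, and with library totals 5 rose and 3 fell. STT3B (from 62.8 and 54.1 to 176 and 155 CPM), PDIA4 and SRP68 were higher. SEC11A (from 154 and 145 to 51.9 and 52.5 CPM), SSR4 and TMED5 were among those lower. Lysosomal genes fell in 4 of 71 cases, or 5.63%, near the 5.14% of all genes, and none rose. With library totals 3 rose and 3 fell. Among the falls, LAPTM4A had 171 and 152, then 66.2 and 49 CPM, LAPTM4B had 12.6 and 78.2, then 10.6 and 7.29 CPM, and LAMP3 had 1 count over both 2-cell pools.

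Oocyte markers as a list fell in 2 of 15 cases (13.3%), ZP3 and OOEP, and none rose, where 5.14% of all genes fell and 3.37% rose. Of 24 cumulus and granulosa markers tested, INHA, CYP11A1 and DCN fell (12.5%) and GATM rose (4.17%), the last 2 with counts in a single pool. In whole cells 8 of these 24 fell and none rose, with a median log2 change of -2.0, where 5.96% of all genes fell. None of the 8 sperm markers and none of the 8 blood and immune markers tested was called in edgeR. LDHC, the lactate dehydrogenase of testis that oocytes also express, had 83.6 and 117 CPM at MII and 54.7 and 45.9 CPM at the 2-cell stage, and TSSK6 3.1 and 1.04, then 4.78 and 5.81 CPM. CD52 had 16.4 and 80.5, then 14.3 and 20.1 CPM, and the globin HBA 24.8 and 29.5, then 20.4 and 16.7 CPM.

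Polysome changes were next set beside those of whole-cell mRNA in the same model. There 877 genes rose (6.0%) and 871 fell (5.96%) from MII to 2-cell. This balance depends on scaling. With library totals and no TMM factors, 2145 genes were called in whole cells, and 79.9% of them were higher. The median whole-cell change of all genes was then 0.465 on the log2 scale. Whole-cell rises and falls given here and above use TMM. Over 12212 genes with a mean of at least 1 CPM in either polysome stage, the log2 changes of polysomes and transcriptome had a Spearman's rho of 0.432 and a Pearson's r of 0.403, across genes, which are not independent. Of the 493 genes higher in polysomes, 125 (25.4%) also rose in whole cells and 5 fell. Of the 751 lower genes, 324 (43.1%) also fell in whole cells and 4 rose. The whole-cell estimate had the sign of the polysome change in 75.5% of the higher and 86.8% of the lower genes, while over all genes the estimate was above 0 in 48.6% and below 0 in 48.2%. At least 1 CPM in all 3 MII transcriptomes was found for 74.4% of the higher and 87.9% of the lower genes, against 66.8% of all genes. Both kinds of library were primed from poly(A) tails, and tail length was not measured. A change in amount of an mRNA and a change of its tail therefore cannot be told apart in these levels. Polysomes and whole cells also came from separate samples.

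The difference between the 2 changes was tested for each gene, and 264 genes passed, 106 with a change more positive in polysomes (0.725%) and 158 with one more negative (1.08%). Of these, 62 were also called higher and 71 called lower in polysomes. In whole cells 45 of the 106 were called lower and 78 of the 158 higher. The polysome and whole-cell estimates had opposite signs in 193 of the 264, so many differences rest in part on the whole-cell change. UHRF1, CREBBP, ACTR2 and STT3B were among those more positive in polysomes, by log2 2.18, 2.18, 2.93 and 1.91. UBB, EIF4A3, SNRPB, RAC1 and POLR2B were among those more negative, by -1.44, -2.22, -1.63, -1.18 and -2.94. Their adjusted p lay between 0.00375 and 0.0415 in edgeR. Most of the POLR2B level at MII came from F10 of gradient B. HSF1 rose on polysomes by log2 1.55 and in whole cells by 3.4, from 3.85 to 40.8 CPM, and the difference of -1.84 passed (adjusted p = 0.0374). With MII and 2-cell libraries alone in the model, 340 and 825 genes passed in place of 106 and 158.

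In ARAF, a RAF kinase, the whole-cell level fell while the polysome change did not pass the test. Its polysome pools held 80.3 and 153 CPM at MII and 74.2 and 80.8 CPM at the 2-cell stage, while whole cells held 163 ± 43.1 and 3.27 ± 1.22 CPM (SD, n = 3). The whole-cell log2 change was -5.64 and the polysome change -0.59 ± 0.39 (adjusted p of the difference 3.13e-05 in edgeR). SLC25A3, the mitochondrial phosphate carrier, fell in whole cells from 13.8 to 0.232 CPM and had 1.48 and 1.39, then 0.612 and 1.75 CPM on polysomes.

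In 9 genes both changes were called and went opposite ways. The following were picked after their values were seen. MCL1, which protects cells from death, rose on polysomes from 2.45 and 3.83 to 14.8 and 12.8 CPM while its whole-cell mean fell from 44.3 to 21.4 CPM (adjusted p of the difference 0.000239 in edgeR). HNRNPH1, a splicing regulator, rose from 7.56 and 6.72 to 18.1 and 15.4 CPM on polysomes and fell from 151 to 34.9 CPM in whole cells. NFKBIB, an inhibitor of NF-kappaB, fell from 673 and 1279 to 290.4 and 386 CPM on polysomes and rose from 18.4 to 43.2 CPM in whole cells. The other 6 were FIBP, GLDC, KRR1, PRMT7, RRAD and WBP2.

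**Figure D4:**
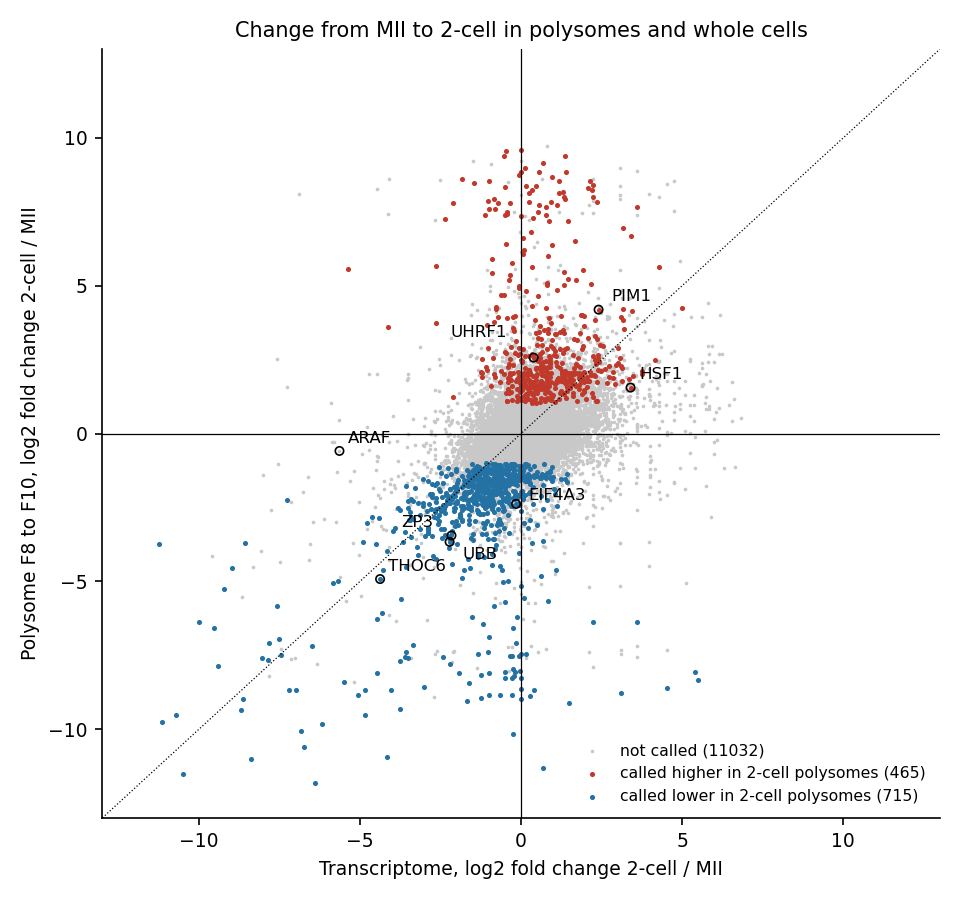
Log2 fold change from MII to 2-cell in polysomes (vertical axis) against that in whole-cell mRNA (horizontal axis) for 12212 genes with a mean of at least 1 CPM in either polysome stage. Red and blue points are genes called higher and lower in 2-cell polysomes, grey points were not called, and the dotted line marks equal changes; UBB and ZP3 lie in the lower left, PIM1 in the upper right and ARAF at -5.64 and -0.59.

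Whether an mRNA moved between monosomes and polysomes was asked by comparing the ratio of polysomes (F8-F10) to monosomes (F3-F5) of the same gradient between the stages. The free RNA fractions F1-F2 did not enter this ratio, so moves between free RNA and ribosomes were not tested. None of 14873 genes passed in edgeR's quasi-likelihood test (0.0% higher and 0.0% lower, smallest adjusted p = 0.173), 312 had an unadjusted p under 0.05, and the likelihood ratio test called 14 and DESeq2 29. Monosome levels of 4 genes described above are given beside this count. UBB had 20781 and 49560 CPM in MII and 2017 and 1450 CPM in 2-cell monosomes, and the change of its ratio was log2 0.52 (adjusted p = 1). UHRF1 had 236 and 219.6, then 756 and 1085 CPM in monosomes, and ZP3 10932 and 26851, then 1784 and 1255 CPM. PIM1 had 11 and 7.05, then 56.4 and 105 CPM. In each of these 4 genes the monosome pools of the 2 stages did not overlap. They do not stand for all called genes. RBBP7, lower on 2-cell polysomes, had 372 to 510 CPM in MII and 389 to 916 CPM in 2-cell fractions F3 to F5.

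**Figure D5:**
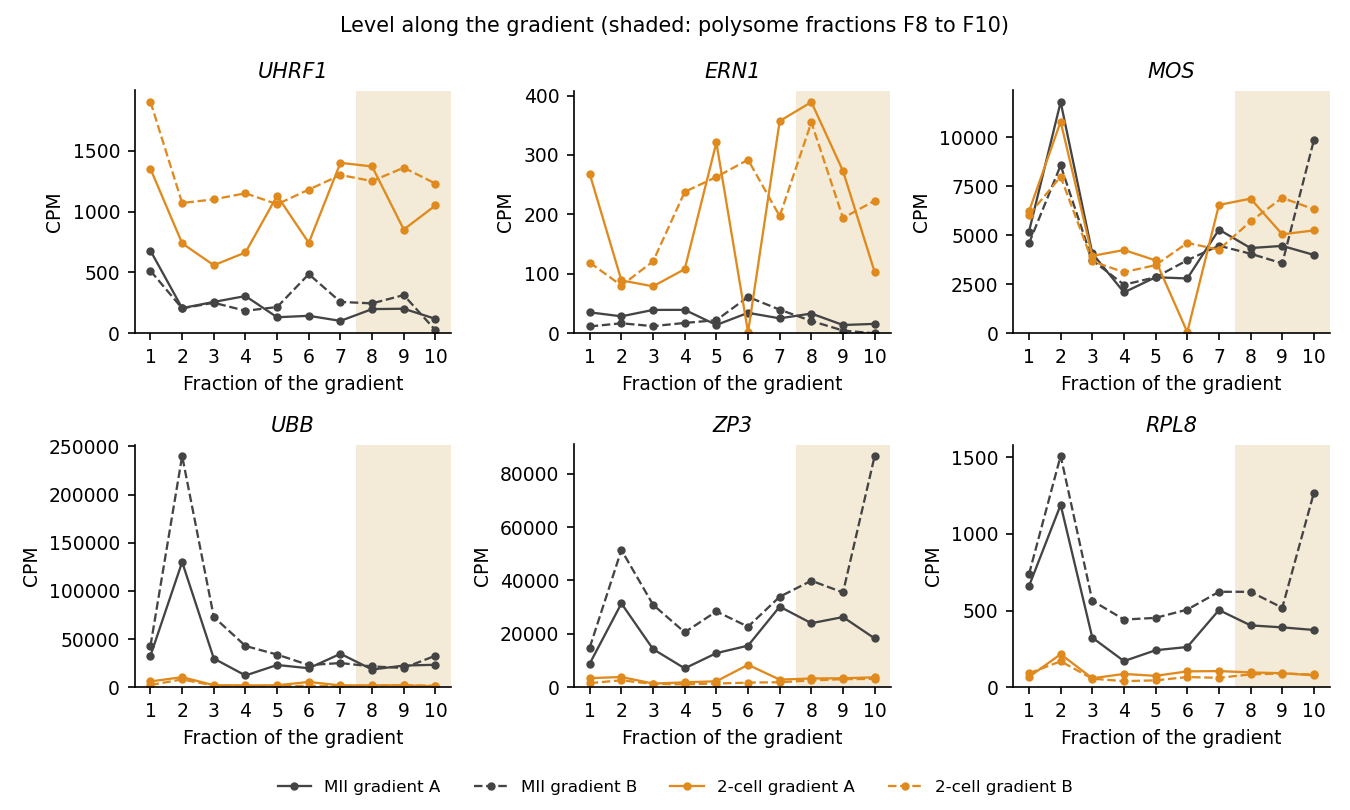
Level (CPM) of 6 genes in each of the 10 fractions of the gradient, with MII in grey and 2-cell in orange, solid lines for gradient A and dashed lines for gradient B, and polysome fractions shaded. UHRF1 and ERN1 are higher and UBB, ZP3 and RPL8 lower in 2-cell embryos along the gradient, F10 of MII gradient B is the peak at 86600 CPM in ZP3, and F6 of 2-cell gradient A is the exception in ERN1, at 1.80 CPM, and the low point in MOS, at 63.2 CPM.

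At the other stages, described with no test, the higher genes had a median polysome level of 10.0 CPM in GV oocytes, 6.27 CPM at MII, 29.2 CPM at the 2-cell and 34.8 CPM at the 8-cell stage. The lower genes had medians of 42.4, 58.8, 15.1 and 67.7 CPM at these stages, and 95.7 and 96.1 CPM in morulae and blastocysts. Over all genes tested, the median lay between 8.79 and 11.2 CPM at all 6 stages. Both groups were chosen by their MII and 2-cell levels, so the step between those stages is built in. UBB had 7880 and 10264 CPM in GV oocytes and 10074 and 11293 CPM at the 8-cell stage, below its MII level at both stages. ZP3 went from 5711 and 9633 CPM in GV oocytes to 471 and 133 CPM at the 8-cell stage. PIM1 had 5.22 and 6.3 CPM in GV oocytes and 99 and 90.4 CPM at the 8-cell stage, and UHRF1 had 258 and 168 CPM in GV oocytes and 264 and 229.9 CPM at the 8-cell stage.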

How the data were processed

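Polysome mRNA of MII oocytes and 2-cell embryos was measured by RNA-seq of sucrose gradient fractions, and whole-cell mRNA by RNA-seq of separate samples. The authors deposited 1 table of expected counts from Salmon for 16706 genes and 138 libraries, not normalized, in which 11.7% of values were not whole. They made libraries with a kit that primes from poly(A) tails. The study names annotation ARS-UCD1.2 and the submitters' processing notes UMD3.1, so no coordinates are given. Every library was mapped to its group by its labels.

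Here each gradient's 3 polysome fractions were added into 1 pool, and the expected counts were rounded to whole numbers. Genes were filtered with filterByExpr, pools were scaled by TMM, and edgeR's quasi-likelihood test (edgeR 4.0.16, limma 3.58.1, R 4.3.3) was fitted to 12 polysome pools and 18 transcriptomes of all stages in 1 model, with 1 group for each stage and kind of library. Tests were two-sided with Benjamini-Hochberg adjustment over all genes tested, and a gene was called at an adjusted p below 0.05 and a change above 2-fold. SEs were derived from the F statistic. A second model set F8-F10 against F3-F5 within gradients, with the gradient as a term. Scripts were tested on simulated data. DESeq2 1.42.0 and other settings served as alternatives. Leaving out F10 of MII gradient B and using F8 and F9 alone were chosen after seeing the data. Summaries and plots used Python 3.11.15, numpy 2.4.6, pandas 2.3.3 and matplotlib 3.10.9.

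The comparison and the 36 gene lists were chosen with earlier results of these data known. Named genes were the 10 a direction with the largest fold change (mean of at least 10 CPM in the higher stage, pools not overlapping), the 6 a direction with the largest difference in CPM, up to 3 called genes a direction of each list by adjusted p (2 most abundant members where none was called), the 5 a direction with the largest difference from the transcriptome, and a fixed set of oocyte genes. Some genes that the rule names are not reported here. Genes with opposite changes were picked after their values were seen. The labels tell replicates by letter and the experiment was performed 2 times. The study calls the replicates biological. Which step the letters separate is not given in the sources used here, so p-values speak only for these samples. In the model of polysomes and transcriptomes, the spread behind p-values and SEs was estimated over 30 libraries of all stages. It was not estimated from the MII and 2-cell pools alone.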

Additional observations from a re-analysis of the deposited data

Results flagged for a closer look

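For 25 of the 183 named genes the polysome change from MII to 2-cell differed from the whole-cell change in the test of the difference itself (edgeR's quasi-likelihood test, adjusted p below 0.05). All polysome levels below are the 2 pools of a stage, gradient A first, and whole-cell levels are means of 3 samples.

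Of the 10 genes named for the size of this difference, the polysome change was the more positive in 5. ARAF differed by log2 5.05 (adjusted p = 3.13e-05) and SLC25A3 by 5.58 (adjusted p = 0.000291), with the values given above. RARRES2 differed by 7.5 (adjusted p = 0.0485), with 24.4 and 52.6, then 2.45 and 3.32 CPM on polysomes and 78.5, then 0.0251 CPM in whole cells, and lost the call without F10 of MII gradient B. RND3 differed by 8.96 (adjusted p = 0.00719) with 0 counts at MII and 4 at the 2-cell stage over both polysome pools, and 11.1, then 0.206 CPM in whole cells. UBR3 differed by 6.89 (adjusted p = 0.0373) with 1 count and then 139 counts over both pools, nearly all of them in 2-cell pool B.

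The polysome change was the more negative in the other 5. WDR35 differed by -5.68 (adjusted p = 0.0348), with 51.8, then 55.6 CPM in whole cells. SAMD15 differed by -5.15 (adjusted p = 0.0423), with 3.53 and 3.08, then 0.139 and 0.0308 CPM on polysomes and 21.2, then 21.1 CPM in whole cells. SLC27A6 differed by -6.93 (adjusted p = 0.0409), with 2.92 and 1.04 CPM at MII and no count at the 2-cell stage on polysomes. EFCAB6 differed by -5.7 (adjusted p = 0.0428) and GSTT1 by -12 (adjusted p = 0.0438). GSTT1 had counts in MII pool B alone (980 of them), and both genes lost the call without F10 of MII gradient B, where the differences were -2.55 and -0.691. Where a stage had no count, the size of a fitted difference depends on the prior count of the model.

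The other 15 were named by level, fold change or list. The polysome change was the more positive in UHRF1 (2.18), CREBBP (2.18), ACTR2 (2.93), STT3B (1.91), HIRA (6.51), MBD2 (8.53) and DPPA4 (6.3), where HIRA, MBD2 and DPPA4 had 2, 0 and 0 counts in the MII polysome pools. It was the more negative in UBB (-1.44), HSF1 (-1.84), POLR2B (-2.94, with most of its MII level in F10 of gradient B), EIF4A3 (-2.22), SNRPB (-1.63), AAAS (-2.67), RAC1 (-1.18) and TMED5 (-4.67, with no count in the 2-cell polysome pools). All 15 values are log2 differences.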

How the results depend on the processing

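No called change of a named gene turned its sign under the alternatives that gave a value, though that of GSTT1 went to 0 without F10 of MII gradient B. Uncalled estimates of BTG4, CD52, COX1, COX3, FBXO43, GDF9, NPM2, SLC25A3 and ZAR1 changed sign under at least 1 alternative. The number of genes called depended on the test and on the libraries that set the spread. For polysomes, the likelihood ratio test called 891 higher and 1135 lower, DESeq2 894 and 1199, library totals without factors 762 and 461, the 4 pools alone 67 and 118, the 12 pools alone 2 and 24, and F8 and F9 alone 280 and 517. For the difference from the transcriptome, the likelihood ratio test called 328 and 362, DESeq2 374 and 450, MII and 2-cell libraries alone 340 and 825, F8 and F9 alone 56 and 81, and F7 to F10 gave 267 more negative. For polysomes over monosomes, the likelihood ratio test called 4 higher and 10 lower, DESeq2 3 and 26, and the MII and 2-cell pools alone 2 lower. Leaving out 1 library pool or transcriptome at a time gave 154 to 456 higher and 320 to 757 lower genes for polysomes, 44 to 122 and 40 to 138 for the difference, and 0 for polysomes over monosomes. The causes were not tested. With 2 pools a stage, a pool left alone is assumed to vary like the other groups.

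The labels do not say that letters pair gradients, and deviations of same-letter pools correlated at r = 0.0303 across genes. With the letter as a replicate block, 395 genes were higher and 638 lower on polysomes, and 67 and 104 passed for the difference. Of the 183 named genes, 171 kept their side of the threshold under the block, 179 with RLE size factors, 163 with library totals, 182 with DESeq2, 74 with the 4 pools alone and 39 with the 12 pools alone.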
